A study of Mus musculus with 8 samples.

Results

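The genes described here are interferon-stimulated genes, a named list of 39 genes that cells switch on when they sense interferon. A gene entered if an array probe set was annotated with its symbol alone, and the probe set with the highest mean was used where there were several. This gave 35 of the 39 genes, out of 22180 genes measured in all, of which 13872 were tested. Oas1a, Dtx3l and Gbp2 were present only on probe sets listing several symbols, and Ifi44 was not in the annotation used here. Testing required a level of 5.19, the median of all array values, in the mean of some group. This kept 33 of the 35, leaving out Mx1 and Mx2, and Isg15 and Apol9b passed only through the day 19 group.

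Left ventricle tissue of female C57BL/6 mice was profiled on 8 arrays, 2 for each of 4 reproductive states. The mice were 3 to 4 months old, came from Jackson Laboratories, and the labels name no transgene or drug. The reference group was non-pregnant mice in diestrus (replicates 2 and 3), and the others were mice at day 12 of pregnancy (replicates 2 and 3), day 19 of pregnancy (replicates 1 and 2, given as 18/19 days in the protocol) and day 1.5 after birth (replicates 2 and 4). The labels do not say which animal each sample came from, so the p-values measure only the spread between these samples. All levels are log2 intensities, so a difference of 1 is a doubling, and because the tissue is bulk, fewer cells of a type and less RNA per cell cannot be told apart.

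Interferons are secreted proteins that signal infection or tissue stress to neighbouring cells. Type I interferons bind the receptor made of Ifnar1 and Ifnar2, whose kinases Jak1 and Tyk2 act on transcription factors that include Stat2. Stat2 joins Irf9 in a complex that binds interferon-stimulated response elements in promoters, while interferon gamma has its own receptor and acts through gamma-activated sites. The induced genes encode sensors of viral nucleic acid, proteins that block viral replication, the ubiquitin-like Isg15 with its enzymes, and GTPases that attack intracellular pathogens.

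The response element was searched for in the promoters of the listed genes, whatever their day 12 difference. Of the 39 genes, 29 had an entry in the RefSeq promoter table (GRCm38.p6), which covers 250 bases before to 50 bases after each gene's start. The core of the element, GAAA, any 2 bases, GAAA, searched on both strands, was found in 16 of these 29, or 55.2%, against 3.99% of 27025 genes (1079 genes). Windows of 150 bases ending at the start are printed for the 4 genes with the largest day 12 difference among measured genes whose promoter held the core. Capitals mark the matches, and each sequence runs 5′ to 3′ on the gene's own strand.
Rsad2, chr12:26456453-26456602, minus strand: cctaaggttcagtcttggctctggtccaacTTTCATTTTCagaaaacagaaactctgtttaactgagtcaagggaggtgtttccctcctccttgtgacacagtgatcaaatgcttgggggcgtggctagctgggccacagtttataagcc
Gbp3, chr3:142559894-142560043, plus strand: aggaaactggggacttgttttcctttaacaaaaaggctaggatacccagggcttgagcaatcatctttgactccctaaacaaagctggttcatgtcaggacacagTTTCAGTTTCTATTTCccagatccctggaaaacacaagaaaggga
Bst2, chr8:71537473-71537622, minus strand: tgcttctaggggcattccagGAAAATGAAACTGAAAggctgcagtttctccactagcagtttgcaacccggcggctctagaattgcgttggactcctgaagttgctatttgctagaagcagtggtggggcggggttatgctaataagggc
Apol9b, chr15:77728922-77729071, plus strand: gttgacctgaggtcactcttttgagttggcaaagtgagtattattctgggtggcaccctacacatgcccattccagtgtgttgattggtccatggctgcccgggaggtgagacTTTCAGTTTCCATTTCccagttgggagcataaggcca
The Rsad2 window held 1 match, 120 to 111 bases upstream of the start. The other windows each held 2 overlapping matches, which lay 45 to 30 bases upstream in Gbp3, 130 to 115 in Bst2 and 37 to 22 in Apol9b. A match is a description of the letters and not a site shown to be bound. The median day 12 difference was 0.22 over the 14 measured genes with the core and 0.30 over the 11 without it, and the ranges overlapped (-0.045 to 0.89 and 0.049 to 0.86).

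The mean level of the 35 genes was lowest in diestrus, 6.58 ± 0.012 (SD, n = 2 arrays). It was 6.71 ± 0.18 at day 1.5 after birth, 6.87 ± 0.017 at day 12 and 7.72 ± 1.44 at day 19. By array, the mean was 6.57 and 6.58 in diestrus, 6.89 and 6.86 at day 12, 6.70 and 8.74 at day 19, and 6.58 and 6.84 after birth. The day 12 arrays lay close together and apart from both diestrus arrays. The day 19 arrays lay far apart, on either side of the day 12 arrays, and the post-partum arrays spanned from the diestrus level to just under that of day 12. Over all genes tested the mean shift from diestrus stayed between -0.032 and 0.028 on the 6 arrays outside diestrus. The day 19 average therefore rests on replicate 2, and each statement on day 19 is given for the 2 arrays separately.

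**Figure D1:**
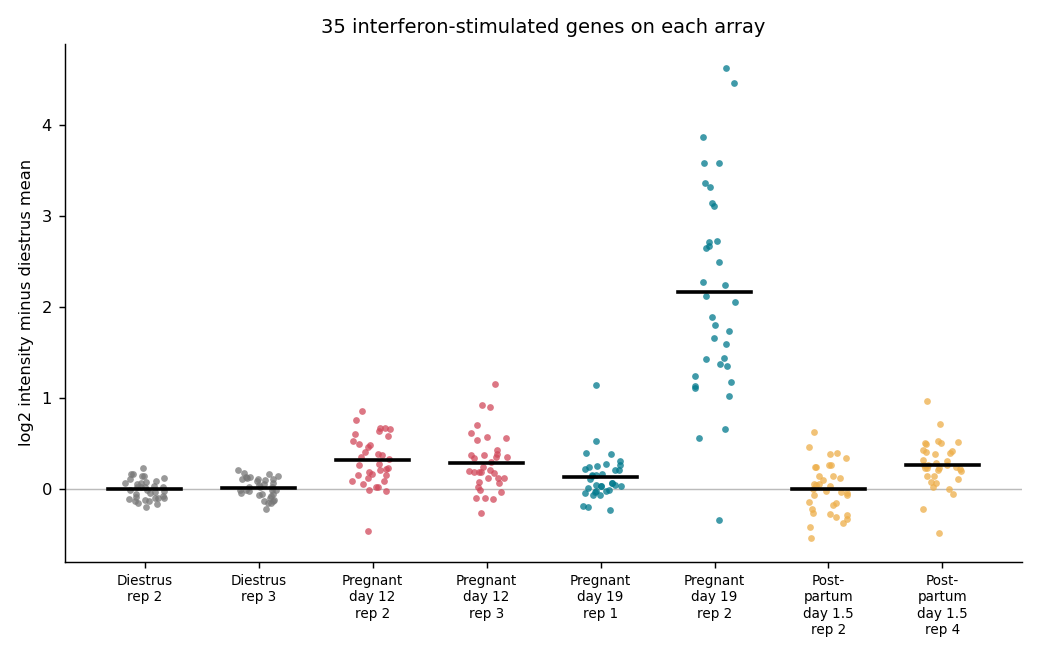
Log2 intensity minus the diestrus mean (y axis) of the 35 interferon-stimulated genes on each of the 8 arrays (x axis); points are genes and black bars are the mean over genes. The bars stand at 0.31 and 0.28 on the day 12 arrays, at 0.13 and 2.16 on the day 19 arrays, and at 0.00 and 0.26 on the post-partum arrays.

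Over all probe sets, the 7 arrays without day 19 replicate 2 correlated at 0.980 to 0.992, and that array correlated with them at 0.969 to 0.977. The 8 ventricular cardiomyocyte markers were above the median of all values on every array, and their mean stayed within 0.18 of diestrus. Atrial markers stood 3.07 above diestrus on day 19 replicate 1 and 1.17 above on day 12 replicate 3, and between -0.79 and 0.56 on the other arrays; their part in the results was not tested.

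The comparison of day 12 with diestrus asks how the ventricle stood at mid-pregnancy. Of the 35 genes, 32 had a higher mean at day 12, with a median difference of 0.28 (1.21-fold), against a median of 0.017 over all genes tested. In 22 of the 35, both day 12 arrays were above both diestrus arrays, whereas this order held for 19.5% of all genes measured. Mx1 was the 1 gene with both day 12 arrays below both diestrus arrays (16.5% of all genes), at a level under the filter. In 12 genes the 2 groups overlapped.

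No single gene passed the test across all genes at day 12. With limma fitted to all 8 arrays and Benjamini-Hochberg adjustment over 13872 genes, 0 genes were called (0%), and the smallest adjusted p among the interferon-stimulated genes was 0.9999. At an unadjusted p under 0.05, 1 of 33 tested passed, Isg20, against 2.31% of genes. That fit shares its spread with the day 19 group, and standard errors ran from 0.20 to 1.16 across the tested interferon-stimulated genes. On the diestrus and day 12 arrays alone they ran from 0.097 to 0.20; there, limma gave 12 of 31 tested genes an unadjusted p under 0.05, all higher at day 12, against 3.78% of genes higher, and again 0 after adjustment (smallest adjusted p = 0.27). All 31 were above the filter in diestrus itself. With both day 19 arrays left out of the full fit, 8 of 31 had an unadjusted p under 0.05, against 2.40% of genes higher.

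The sensors of foreign nucleic acid differed little at day 12, with a median of 0.14 over 5 genes. Of these, 2 were higher without overlap, against 19.5% of all genes measured. Dhx58, a helicase that tunes RNA sensing, measured 5.86 and 5.90 in diestrus and 6.20 and 6.06 at day 12. The difference was 0.25 ± 0.38 (SE of the fit to all 8 arrays, n = 2 per group). Each ± value here and in the other roles is from that fit, whose spread includes the day 19 arrays. On the diestrus and day 12 arrays alone the SE of Dhx58 was 0.11, within 0.097 to 0.20 over the genes tested there. Ddx58, the RNA sensor RIG-I, measured 7.93 and 7.89 in diestrus and 8.07 and 8.03 at day 12 (0.14 ± 0.35). For both genes the groups did not overlap, by a narrow margin. Zbp1, which senses nucleic acid in the Z form and can trigger cell death, measured 5.86 and 6.03 against 5.93 and 6.30 (0.17 ± 1.10). Its groups overlapped, as did those of Ifih1 and of the kinase PKR, encoded by Eif2ak2.

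The transcription factors were higher on both day 12 arrays in 4 of 4 genes (19.5% of all genes), with a median of 0.41. Irf7, which drives interferon transcription, measured 6.89 and 6.77 in diestrus and 7.48 and 7.53 at day 12, 1.60-fold higher (0.68 ± 0.98). Stat2 measured 7.01 and 6.74 in diestrus and 7.40 and 7.40 at day 12 (0.52 ± 0.57). Irf9, the DNA-binding partner of Stat2, measured 7.74 and 7.77 against 7.97 and 8.14 (0.30 ± 0.34). These 3 genes were chosen for the smallest day 12 p of their role. Irf1, a factor also induced by interferon gamma, was 0.20 higher. It measured 6.79 and 7.00 in diestrus and 7.10 and 7.08 at day 12.

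The antiviral effectors held the largest day 12 differences and also the largest disagreement. Of 11 genes, 9 were higher, 5 of them without overlap (19.5% of all genes), and the median was 0.31. Rsad2 encodes viperin, an enzyme that makes a chain-terminating nucleotide. It measured 7.94 and 7.79 in diestrus and 8.72 and 8.79 at day 12, 1.85-fold higher (0.89 ± 0.51). Isg20, an exonuclease that degrades RNA, measured 6.56 and 6.44 against 7.08 and 7.64, 1.82-fold higher (0.86 ± 0.26, unadjusted p = 0.012 by limma). Bst2, or tetherin, holds budding virions at the cell surface, and measured 5.75 and 5.83 against 6.42 and 6.41 (0.62 ± 0.61). In these 3 genes, chosen for the smallest day 12 p of their role, the groups did not overlap. Among the RNA-binding Ifit genes and the oligoadenylate synthetases, Oasl2 was 0.31 higher without overlap, while Ifit1, Ifit2, Ifit3, Oas2 and Oas3 overlapped, with differences from -0.033 to 0.40. Mx1 stood 0.37 below diestrus and Mx2 0.38 above it. Mx1 was under the filter level on every array, and Mx2 on every array but day 19 replicate 2. The genes of these families are related in sequence, and some array probes may share signal between them.

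Isg15 and the enzymes around it were higher in 6 of 6 genes, 4 of them without overlap (19.5% of all genes), with a median of 0.29. Isg15 itself, a ubiquitin-like modifier, measured 4.19 and 4.41 in diestrus and 4.96 and 4.49 at day 12 (0.42 ± 0.40), below the filter in both groups. Usp18, the protease that removes Isg15 and restrains the receptor, measured 7.19 and 7.30 against 7.74 and 7.62 (0.43 ± 0.67). Herc6, the ligase that attaches Isg15 in mice, measured 6.87 and 6.60 against 7.19 and 7.07 (0.40 ± 0.74). Usp18 and Herc6 showed no overlap, and neither did Parp14, an ADP-ribosyltransferase, at 0.18. Trim25 and Parp9 overlapped between groups, at 0.049 and 0.062.

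The GTPases were split. Gbp3, a guanylate-binding protein, measured 5.90 and 6.31 in diestrus and 6.86 and 7.00 at day 12, 1.77-fold higher (0.82 ± 0.87). The immunity-related GTPase Igtp measured 7.45 and 7.65 against 7.57 and 8.10 (0.29 ± 1.16), and Irgm1 measured 6.25 and 5.93 against 6.21 and 6.21 (0.12 ± 0.98). Gbp3 did not overlap between groups and the other two did. All 6 of the remaining induced genes were higher without overlap (19.5% of all genes), with a median of 0.31. Among them Apol9b, an apolipoprotein L gene with a near-identical neighbour, measured 4.22 and 4.50 against 5.03 and 4.92 (0.62 ± 0.67). Ifi27, a mitochondrial protein, measured 7.56 and 7.81 against 7.95 and 8.11 (0.34 ± 0.33), and the mitochondrial nucleotide kinase Cmpk2 7.85 and 7.69 against 8.15 and 7.94 (0.28 ± 0.43). Xaf1 was 0.39 higher, Ifi35 0.21 and Rtp4 0.17; a second, dimmer probe set of Ifi35 measured 5.42 and 5.44 in diestrus and 5.46 and 5.66 at day 12.

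**Figure D2:**
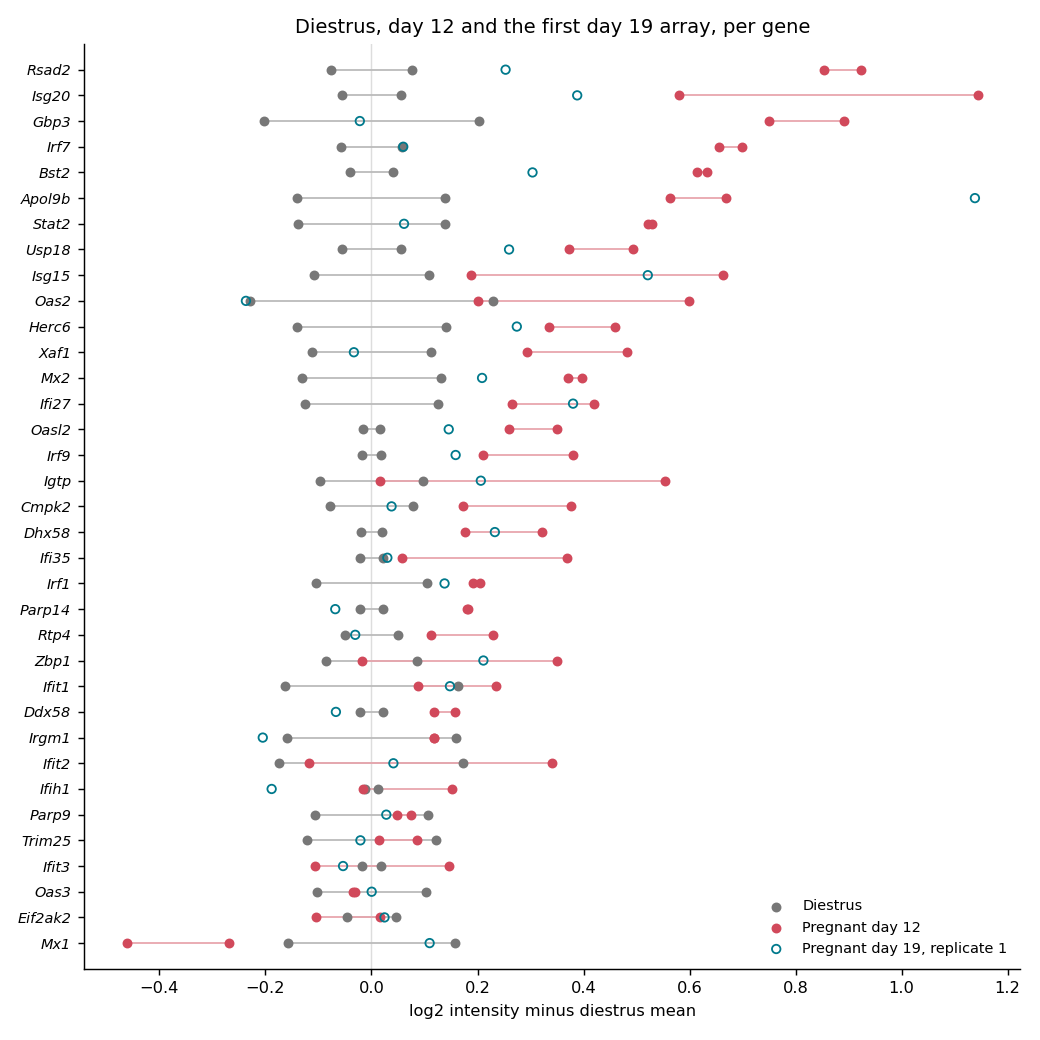
Log2 intensity minus the diestrus mean (x axis) for each of the 35 genes (y axis, ordered by the day 12 difference): grey points are the 2 diestrus arrays, red points the 2 day 12 arrays and open circles day 19 replicate 1, with lines joining arrays of a group. Rsad2 stands highest at 0.89 and Mx1 lowest at -0.37, and red and grey points overlap in 12 genes.

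Immune cell markers were read on the same day 12 arrays. Beside the 0.31 and 0.28 of the interferon-stimulated genes on replicates 2 and 3, the 10 macrophage markers averaged -0.037 and 0.12 from diestrus, the 10 T and NK cell markers -0.12 and -0.13, and the 6 plasmacytoid dendritic cell markers, one of them Bst2, -0.0027 and -0.069. The 5 monocyte markers averaged -0.14 and 0.11, with a median day 12 difference of 0.25 and a range from -0.95 (Plac8) to 0.36 (Fcgr4). The 6 neutrophil markers averaged 0.097 and 0.27, with a median difference of 0.14. Of the T and NK cell markers, 8 were below the median of all values on each day 12 array, against 9 on each diestrus array. The 2 red cell genes measured were 0.83 and 1.12 above diestrus on those arrays, and the part of these markers in the result was not tested.

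Day 19 was compared with diestrus and with day 12. Against diestrus, 34 of 35 genes had a higher mean and 17 had both arrays higher, against 17.8% of all genes; Ifit3 was the exception, 0.20 lower. The median difference was 1.15, and limma called 0 genes after Benjamini-Hochberg adjustment (0%; smallest adjusted p among these genes 0.66). At an unadjusted p under 0.05, 6 of the 33 tested passed, against 7.29% of genes: Dhx58, Isg20, Bst2, Ifi27, Isg15 and Apol9b, of which the last 2 entered the test through the day 19 values. Against day 12, 33 genes had a higher mean, 4 with both arrays higher (18.2% of all genes), and limma called 0 (0%); Apol9b was the 1 gene with an unadjusted p under 0.05, against 6.47% of genes. This comparison and the one before share the day 19 arrays.

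The 2 day 19 arrays gave different pictures. On replicate 2 the level exceeded that on replicate 1 in 34 of 35 genes, by a median of 1.99. It did so by more than 1 in 30 genes, against 2.49% of all genes measured, and replicate 2 was the highest of the 8 arrays for 33 genes, against 20.8%. Igtp measured 7.76 on replicate 1 and 12.18 on replicate 2, Zbp1 6.16 and 10.41, and Irf7 6.89 and 10.69. Irgm1 measured 5.88 and 9.67, and Apol9b 5.50 and 7.94. Igtp, Zbp1 and Irgm1, high on replicate 2, overlapped with diestrus at day 12, and the Isg20 level on replicate 2, 7.61, lay between its day 12 arrays. Ifit3 was lower on replicate 2, 5.86 against 6.15.

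On day 19 replicate 1 the genes averaged 0.13 above diestrus, with 25 of 35 above the diestrus mean. It was above both diestrus arrays in 17 genes, against 33.4% of all genes, and below both day 12 arrays in 23, against 34.3%. Rsad2 was 8.12 on it, between its diestrus and day 12 levels, and Gbp3, at 6.08, lay within the diestrus range. Apol9b, at 5.50, exceeded its day 12 levels. With replicate 2 left out, the median against diestrus was 0.061, and the median against day 12 was -0.16. With replicate 1 left out, replicate 2 alone gave a median of 2.06 against diestrus. A lone array has no spread of its own, so no count of genes called is given for it.

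The means of several immune cell marker lists, and of the MHC class II genes, were higher on replicate 2. On it, macrophage markers averaged 1.25 above diestrus, monocyte markers 2.52, T and NK cell markers 1.85 and MHC class II genes 2.43, against 0.10, 0.13, -0.12 and -0.32 on replicate 1. Over both day 19 arrays, 9 of 10 macrophage markers had a higher mean than in diestrus, and Cd163 was 0.18 lower. Of 4 B cell markers, 0 had a higher mean. The lists were not screened for genes that interferon itself induces. The summed linear level of the 10 T and NK cell markers was 1650 on replicate 2 and 238 to 264 on the other 7 arrays, and that of the 10 macrophage markers was 11031 against 4112 to 5668. Of the T and NK cell markers, 3 remained below the median of all values on replicate 2, against 8 or 9 on the other arrays. Their part in the day 19 values was not tested.

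**Figure D3:**
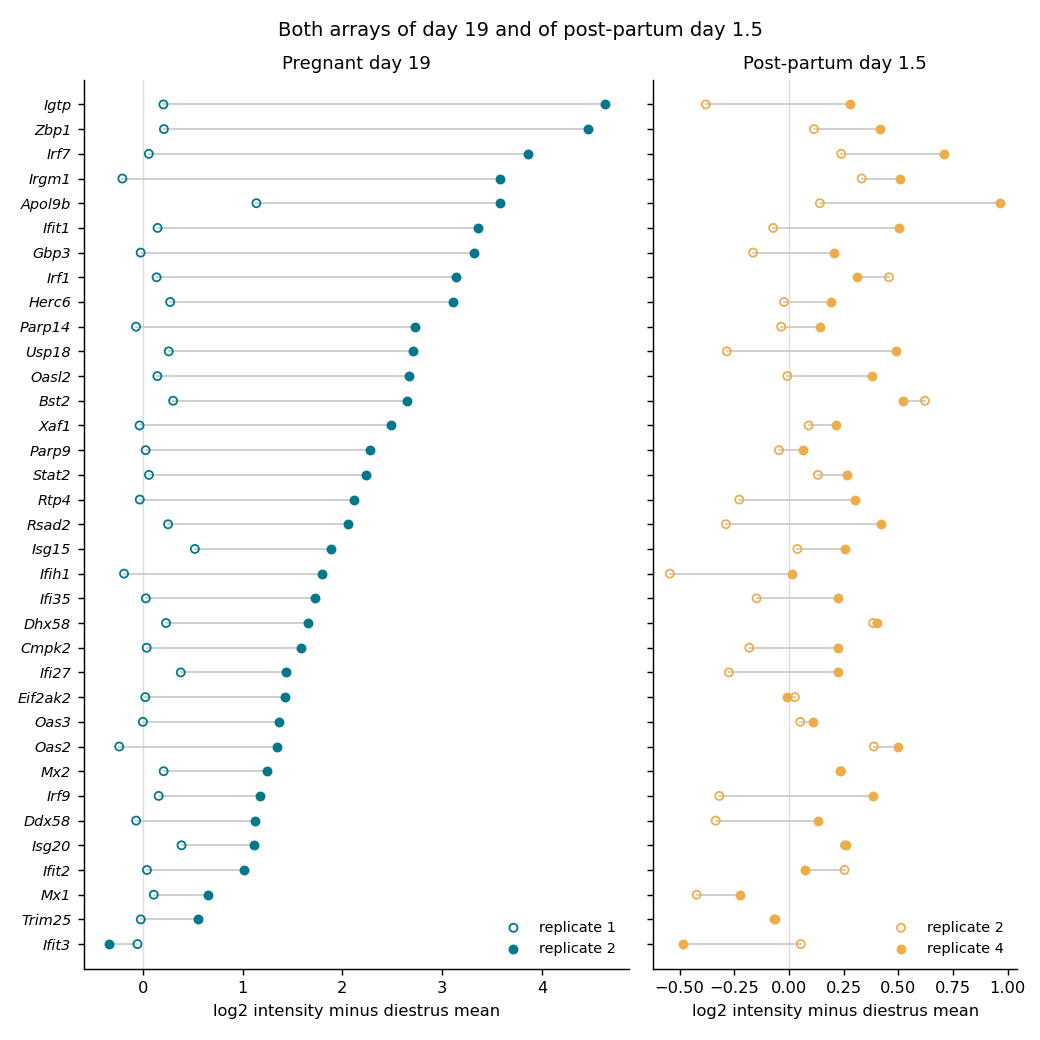
Log2 intensity minus the diestrus mean (x axis, a different range in each panel) of the 35 genes (y axis, ordered by day 19 replicate 2), with the day 19 arrays on the left and the post-partum arrays on the right; lines join the 2 arrays of a gene. Replicate 2 of day 19 lies to the right of replicate 1 in 34 genes, and replicate 4 of the post-partum group to the right of replicate 2 in 29.

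At day 1.5 after birth, 28 of 35 genes had a higher mean than in diestrus, with a median of 0.086, and 10 had both arrays higher, against 20.3% of all genes. Limma called 0 after Benjamini-Hochberg adjustment (0%), and 0 of 33 had an unadjusted p under 0.05, against 6.62% of genes. Bst2 differed most, at 6.41 and 6.31 against 5.75 and 5.83 in diestrus. Both post-partum arrays of Bst2 lay close to its day 12 levels. Rsad2 measured 7.58 and 8.29, one array below diestrus and one above, and Gbp3, at 5.94 and 6.31, spanned the diestrus range.

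The 2 post-partum arrays differed as well. Replicate 4 was above both diestrus arrays in 29 genes, against 34.0% of all genes, whereas replicate 2 was above both in 12, against 38.7%. Replicate 4 exceeded replicate 2 by a median of 0.22, most in Apol9b, at 4.50 and 5.33. Beside this, macrophage markers averaged -0.019 and 0.38 from diestrus on replicates 2 and 4, and T and NK cell markers -0.12 and 0.023, whose part was not tested. Without replicate 4 the median against diestrus was -0.0073, and without replicate 2 it was 0.26. Against day 12, 25 genes had a lower mean and 10 had both arrays lower, against 21.6% of all genes, with a median of -0.15. Limma called 0 (0%), and 0 had an unadjusted p under 0.05, against 8.12% of genes. Against day 19, all 35 had a lower mean and 7 had both arrays lower, against 15.0%. The median was -1.01 and limma called 0 (0%), while Ifi27, Isg15 and Apol9b had an unadjusted p under 0.05, against 8.25% of genes; the last 2 were tested only through their day 19 values. Without day 19 replicate 2 the median was 0.0076.

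The interferon genes and their receptors lie upstream of this response. Of 21 interferon genes listed, 19 were measured and 8 tested. At day 12, 12 of the 19 had a higher mean than in diestrus, 4 with both arrays higher (19.5% of all genes) and 2 with both lower (16.5%). The median difference was 0.10, with a range from -0.30 (Ifna13) to 0.38 (Ifna9), both at levels under the filter. Ifnb1, the gene of interferon beta, lay between 3.04 and 3.47 on every array, under the filter. Ifng, the gene of interferon gamma, measured 5.14 and 5.16 in diestrus, 5.08 and 5.02 at day 12, 5.32 and 6.96 at day 19, and 5.10 and 4.96 after birth. It stood high on day 19 replicate 2 alone. The interferon alpha genes are near-identical copies whose probes may share signal.

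Of 10 receptor and signalling genes measured, 3 had a higher mean at day 12, and the median was -0.036. Both arrays were higher in 0 of them (19.5% of all genes) and lower in 3 (16.5%). Ifnar1 measured 8.11 and 8.09 in diestrus and 7.96 and 8.12 at day 12. Ifnar2 measured 9.63 and 9.67 against 9.61 and 9.60, and 10.28 on day 19 replicate 2. Among 13 genes of the sensing pathway the median was 0.048, and among 8 feedback inhibitors it was 0.15, with 5 of the 8 higher on both arrays (19.5% of all genes) and 2 lower on both (16.5%). Trim30a, an inhibitor of innate signalling, measured 5.34 and 5.40 in diestrus and 5.65 and 6.01 at day 12 (0.46). Socs3, an inhibitor of cytokine receptors, was 0.20 lower. Limma called 0 genes of these 4 lists in any comparison (0% of all genes tested). The lists held 8, 10, 12 and 8 tested genes. At day 12 the unadjusted p by limma was under 0.05 in 1 of these genes, against 2.31% of all genes tested. It was Ticam1, a sensing adaptor 0.38 below diestrus.

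**Figure D4:**
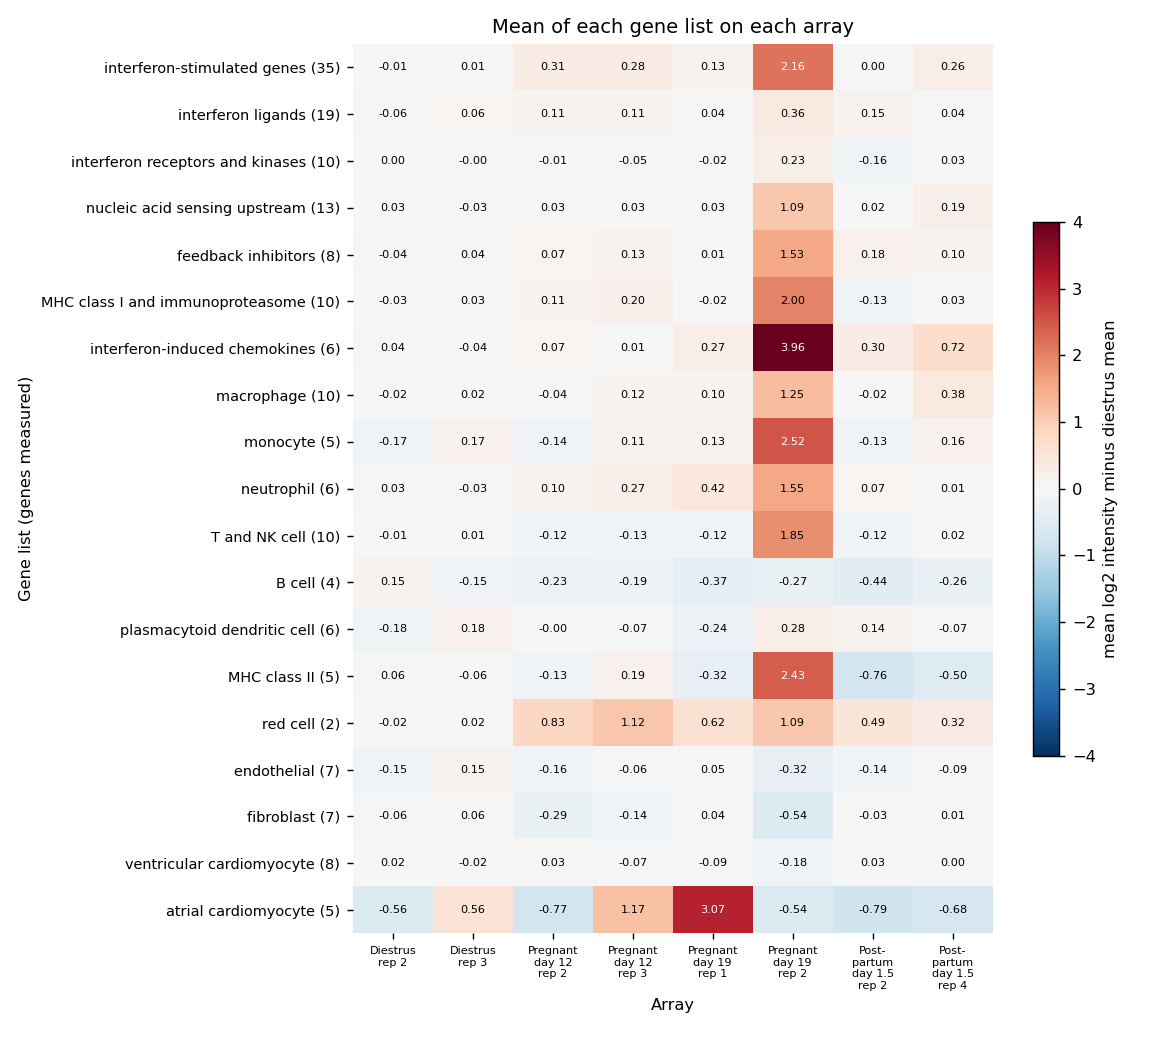
Mean log2 intensity minus the diestrus mean (colour and printed value) of each gene list (y axis, number of genes measured in parentheses) on each array (x axis). The interferon-stimulated genes stand at 0.31 and 0.28 on the day 12 arrays, where the T and NK cell markers are at -0.12 and -0.13. On day 19 replicate 2 the means of the immune lists other than B cells are above diestrus. The plasmacytoid dendritic cell list includes Bst2, itself an interferon-stimulated gene and 2.64 above diestrus on that array. Only 2 of the 6 markers in that list had a higher mean at day 19, with a median difference of -0.18.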

How the data were processed

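Left ventricle RNA (100 ng) of 8 samples was hybridised to Affymetrix arrays, 1 per sample. The deposited values are log2 intensities, for which the submitters' processing notes name RMA and Affymetrix Expression Console; not given in the sources used here were versions, settings and genome build. RMA brings the arrays close to 1 distribution, so changes shared by most genes are largely removed. The medians of the deposited arrays ran from 5.14 to 5.28. Of 34365 probe sets, 23521 had 1 symbol in the platform annotation, 1814 several and 9030 none.

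Samples were grouped by their titles. limma 3.58.1 (R 4.3.3) fitted a mean for each group, using all 8 arrays together (4 residual and 3.68 prior degrees of freedom; typical standard error 0.17), with two-sided tests and Benjamini-Hochberg adjustment over 13872 genes at a threshold of 0.05. The script was tested on simulated data first. The number of arrays limits the precision. Figures used Python 3.11.15 and matplotlib 3.10.9. The genes, lists and tests were chosen with earlier results of these data known. Genes given in full are the 3 of each of the 6 roles with the smallest day 12 p, with Isg15, Irf7 and Stat2, and others were named after their values were seen. Alternatives changed the arrays fitted, array weights, variance prior, filter, probe set choice, scaling, replicate block and motif.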

Additional observations from a re-analysis of the deposited data

Results flagged for a closer look

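Probe sets that list 2 symbols, 1 of them of an interferon-stimulated gene, were used in no comparison. In 2 of the 3, both arrays of another state were above both diestrus arrays, and any of 3 states could meet this. Over all genes measured, that order held for 19.5% at day 12, 17.8% at day 19 and 20.3% after birth. Probe set 17403268 measured 7.83 and 7.73 in diestrus and 7.96 and 8.46 at day 12, a difference of 0.43 between means; it measured 7.67 and 11.93 at day 19 and 7.57 and 7.73 after birth, overlapping with diestrus or lying on either side of it. Probe set 17452126 measured 4.44 and 4.34 in diestrus, 5.05 and 4.46 at day 12, 4.59 and 5.34 at day 19, and 4.48 and 4.69 after birth, whose means are 0.36, 0.58 and 0.20 above diestrus. Every value of it in those 3 states was above both diestrus arrays, but in places by a narrow margin. Day 12 replicate 3, at 4.46, and post-partum replicate 2, at 4.48, lay just above diestrus replicate 2, at 4.44. All its values except that of day 19 replicate 2 were under the filter level, the median of all array values. Which of its 2 genes gives the signal cannot be told apart. The third, 17330119, measured 7.85 and 7.51 in diestrus, 7.74 and 7.46 at day 12, 7.66 and 9.75 at day 19, and 7.83 and 7.92 after birth, and overlapped with diestrus in each state. Groups of 2 arrays are too small to test for an outlying array.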

How the results depend on the processing

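The 35-gene median at day 12 kept its sign in every alternative run. It was 0.26 with arrays centred on their medians, and 0.20 to 0.29 with each array left out in turn, where 0 genes were called. With the replicate number as a block on the diestrus and day 12 arrays, 1 gene was called, Rsad2 (0.89, limma adjusted p = 0.049), among 29 of 13321 genes (0.218%). The labels do not say whether the numbers mark anything shared, and with 2 pairs this could not be settled; deviations of same-numbered arrays correlated at 0.11 over 22180 genes. Without day 12 replicate 3, Zbp1 was -0.018, and with each array left out it ran from -0.018 to 0.35. Without diestrus replicate 3, Irgm1 was -0.041, within -0.041 to 0.28.

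With each array left out, the day 19 median against diestrus ran from 0.061 to 2.06 and the genes called from 0 to 32. Against day 12 the median ran from -0.16 to 1.71 and the calls from 0 to 28, and for post-partum against day 19 from -2.04 to 0.0076 and from 0 to 28; the extremes are those without 1 of the day 19 arrays. The post-partum median ran from -0.0073 to 0.26 against diestrus and from -0.31 to -0.0024 against day 12. The gamma-activated site TTCNNNGAA was in 8 of 29 promoters (27.6%, against 9.55% of genes). With 2 arrays per group and a typical standard error of 0.17, small differences cannot be resolved one gene at a time.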

Other observations

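Genes of antigen presentation are a further group that interferon induces. Of 10 measured genes of MHC class I and the immunoproteasome, 8 had a higher mean at day 12 than in diestrus and 5 had both arrays higher (19.5% of all genes), with a median of 0.16; limma called 0, and 0 had an unadjusted p under 0.05. Psmb9, an immunoproteasome subunit, measured 6.64 and 6.95 in diestrus and 6.99 and 7.32 at day 12, and Tap1, a peptide transporter, 7.06 and 7.09 against 7.27 and 7.58. On day 19 the same genes split by array, with Tap1 at 6.99 and 10.80 and Psmb9 at 6.79 and 9.85.

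Of 6 interferon-induced chemokines, 3 were higher on both day 12 arrays (19.5% of all genes) and 1 lower on both (16.5%), with a median of 0.18. Cxcl10, which attracts T cells, measured 5.64 and 5.49 in diestrus, 5.70 and 5.78 at day 12, 5.45 and 10.73 at day 19, and 5.95 and 6.64 after birth. Ccl2, which attracts monocytes, was 7.28 and 6.99 in diestrus and 6.66 and 6.92 at day 12. It was higher on both day 19 arrays, 8.51 and 10.94, and on both post-partum arrays, 8.76 and 8.90.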
